A study of Mus musculus with 44 samples.

Results

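The genes described here encode the surface Fc receptors Fcgr1 and Fcgr3, the adaptor Tyrobp, its partner receptor Trem2 and the inhibitory receptor Lilrb4a. These 5 genes were taken by name, with earlier results of these data known, from the 3613 genes of the deposited expression table. All 5 were listed and measured. They were followed across 44 single mouse cells, each sequenced as its own library. The cells came from 16 h cultures of neonatal calvarial cells, abbreviated NCC, of the C57BL/6J genotype. Such cultures hold cells of the newborn skull bone. One group was cultured with 50000 added megakaryocytes, the platelet-forming cells of the marrow (20 cells, all on plate 7), and the other without them (24 cells, all on plate 3). All cells were sorted as CD45+F4/80+CD41- and carry the label of primary osteomacs, the macrophages that reside on bone surfaces.

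Macrophages read antibody-coated particles, lipids and neighbouring cells through surface receptors that often have no signalling tail of their own. Such receptors pair in the membrane with a small adaptor, Tyrobp (DAP12) or Fcer1g (the common Fc receptor gamma chain), whose tail carries an ITAM, a tyrosine motif that recruits the kinase Syk once it is phosphorylated. Inhibitory receptors instead carry ITIMs, related tyrosine motifs that recruit phosphatases and restrain the same signals. Trem2, which binds lipids and lipoproteins, signals through Tyrobp; Fcgr1 and Fcgr3 signal mainly through Fcer1g; Lilrb4a carries its own ITIMs.

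The roles given above are background, and the signalling letters of the adaptor and of the inhibitory receptor are shown beside them. These letters were read from GENCODE M21 coding transcripts (mm10), 5′ to 3′, with the tyrosine codons of each motif in capitals. The Tyrobp ITAM stretch covers coding bases 274 to 318 of 342 and spans 2 exons between chr7:30415670-30417382 on the plus strand. The Lilrb4a stretches cover coding bases 892 to 909 (chr10:51496021-51496038, plus strand) and 958 to 975 (chr10:51496194-51496211, plus strand) of 1005.
Tyrobp ITAM: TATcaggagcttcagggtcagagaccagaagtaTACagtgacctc
Lilrb4a, the first ITIM of the tail: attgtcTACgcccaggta
Lilrb4a, the next ITIM of the tail: gtaaccTATgcccagttg

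Promoter sequence is shown for the members that moved together between the groups and are in the RefSeq promoter table (GRCm38.p6), which were Fcgr1, Fcgr3 and Trem2. Each line is the 100 bases before the most upstream RefSeq start: chr3:96293970-96294069 on the minus strand for Fcgr1, chr1:171059404-171059503 on the minus strand for Fcgr3 and chr17:48346301-48346400 on the plus strand for Trem2. Capitals mark TTCCTTCCTC, the longest run of letters that the 3 promoters share. The RefSeq start of Fcgr3 lies within the longer GENCODE gene, so its window may overlap transcribed sequence.
Fcgr1 promoter: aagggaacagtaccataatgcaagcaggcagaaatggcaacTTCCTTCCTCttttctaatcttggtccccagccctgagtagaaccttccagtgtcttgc
Fcgr3 promoter: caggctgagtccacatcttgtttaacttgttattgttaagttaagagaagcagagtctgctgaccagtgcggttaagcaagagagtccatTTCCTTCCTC
Trem2 promoter: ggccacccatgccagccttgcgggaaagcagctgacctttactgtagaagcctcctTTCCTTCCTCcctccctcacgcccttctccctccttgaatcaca

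The shared run began 59 bases before the start in Fcgr1, 10 in Fcgr3 and 44 in Trem2. Its reverse complement contains GAGGAAG, the core letters bound by PU.1, the master transcription factor of myeloid cells. Counted on both strands in the 250 bases before a start, TTCCTTCCTC stood in 0.402% of 32851 RefSeq promoters and GAGGAAG in 10.6%. Every one of the 3 members' promoters held both. The 2 strings overlap, and the longer one was picked because these promoters share it, so its presence in them is a description.

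The deposited values are a signal normalised to the library, and whole reads were recovered from them. Levels are given as CPM, the reads of a gene per 1000000 reads of that cell's library. Libraries held a median of 834834.5 reads with megakaryocytes (69181 to 1212604) and 527930 without (270537 to 714465). With-megakaryocyte cells 11 and 16 were shallow, at 69181 and 71585 reads, and cell 16 also stood apart in the nuclear RNA Malat1, at 245233 CPM against a group median of 6623. No label names an animal or culture for any cell, so each group counts as 1 sample. No difference between the groups was tested, and intervals cover counting error only. Plate and megakaryocytes cannot be told apart, and sample titles name the co-culture for both groups, which goes against the treatment label of the 24 cells.

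The label of macrophage held in one group only. The 17 listed macrophage markers other than the members summed to 26202 CPM at the median in cells with megakaryocytes (8326 to 61829) and to 11.4 CPM in cells without (0 to 176). The 6 of 20 osteoblast and fibroblast markers that were listed went the other way, at a median of 11.2 CPM (3.88 to 196) against 7947 CPM (989 to 92902). The only listed megakaryocyte marker of 14, Pf4, had a median of 183 CPM with megakaryocytes (0 to 8749) and was at most 4.55 CPM without. This 1 gene cannot tell megakaryocyte RNA from expression by the sorted cells themselves, and the source of its reads was not tested. Of the neutrophil markers, 2 of 11 were listed, with medians of 5.01 CPM (0 to 1181) and 0 CPM (0 to 37.7). Of 11 osteoclast markers 1 was listed, Tnfrsf11a, with a median of 1.21 CPM (0 to 1013) and a read in 12 of 20 cells with megakaryocytes, and no read in the cells without. The marker lists of NK and T cells, B cells, dendritic cells, mast cells, endothelium and the erythroid lineage had 0 genes in the table and were not analysed here. The part of these marker differences in the results below was not tested. The 2 groups are called by their label, with or without megakaryocytes, and the 20 cells with megakaryocytes carry nearly all the data on the members.

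All 5 genes were far higher in the cells with megakaryocytes. The adaptor Tyrobp and the inhibitory receptor Lilrb4a were read in every one of those 20 cells, Fcgr3 in 19, and Fcgr1 and Trem2 in 16 each. In the 24 cells without megakaryocytes, Fcgr1 and Fcgr3 had no read, Trem2 had 1 read, Tyrobp had 3 reads and Lilrb4a had 85 reads, of which 80 lay in a single cell. All 5 exceeded a 100-fold ratio of pooled CPM, where 4.00% of the 3271 genes read in 10 cells or more did so, and a 2-fold ratio, where 24.4% did. Their groups did not overlap for Tyrobp and Lilrb4a, against 0.489% of the genes compared. A read in every cell with megakaryocytes was seen for the same 2 members, against 9.60% of genes. Since the members were chosen with earlier results of these data known, these shares describe them and test nothing.

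**Figure D1:**
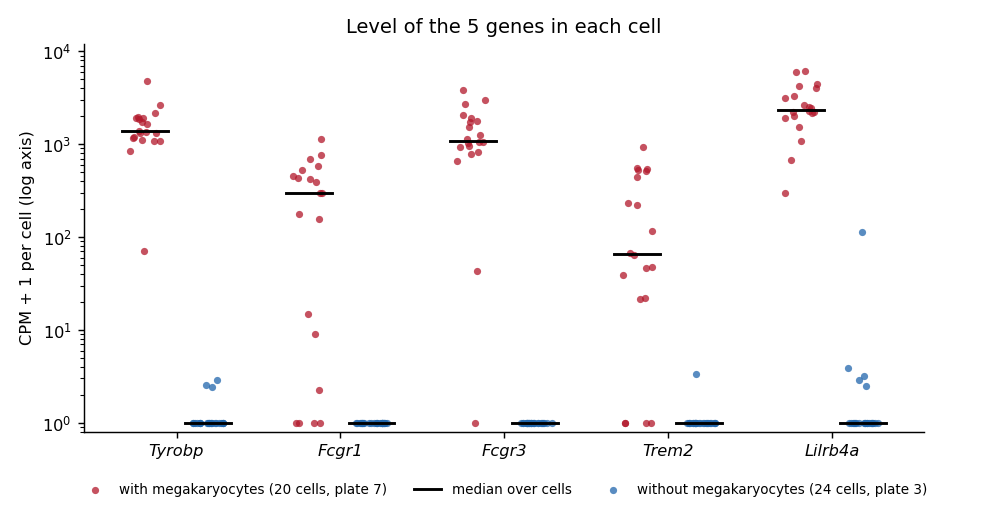
Level of each gene in each cell, as CPM + 1 on a log axis; red points are the 20 cells with megakaryocytes, blue points the 24 cells without, and black lines the medians over cells. Tyrobp and Lilrb4a lie above every blue point in all 20 red cells, while Fcgr1, Fcgr3 and Trem2 include red cells at 0.

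Tyrobp (ENSMUSG00000030579, chr7:30413760-30417585, plus strand) encodes the ITAM adaptor itself. Its level in cells with megakaryocytes was 69.8 CPM in the lowest cell, 1381 CPM at the median and 4807 CPM in the highest, and 19 of the 20 cells held at least 100 CPM. The low cell was the shallow cell 16, with 5 Tyrobp reads, and the high cell was cell 9, which gave 17.4% of the group's Tyrobp reads. In cells without megakaryocytes Tyrobp was read in 3 of 24 (12.5%, Clopper-Pearson 95% interval 2.66 to 32.4%), with 1 read in each and at most 1.90 CPM. The lowest cell with megakaryocytes therefore lay above the highest without. The pooled level was 1762 against 0.242 CPM, a 7292-fold ratio (exact binomial interval 2495 to 35363). Mean log2(CPM + 1) was 10.40 ± 1.15 (SD over 20 cells) against 0.17 ± 0.47 (SD over 24 cells), a difference of 10.22.

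Tyrobp was also among the evenest genes in the cells with megakaryocytes. Its coefficient of variation over cells was 0.570, and 2.90% of the 2204 genes read in at least 10 of these cells had a lower one. Lilrb4a had a like value of 0.566, with 2.81% of genes below. Fcgr3 followed at 0.672 (6.26% below), Fcgr1 at 0.999 (21.5% below) and Trem2 at 1.23 (35.1% below). The adaptor and the inhibitory receptor were thus more even from cell to cell than Trem2, the receptor that signals through the adaptor. Lilrb4a and Tyrobp were also the members with the most reads, 38810 and 27557, and Fcgr1 and Trem2 those with the fewest, 5426 and 3620. The genes ranked were of all levels, and the part of read number in these values and ranks was not tested.

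Fcgr3 (ENSMUSG00000059498, chr1:171051174-171064935, minus strand) encodes the low-affinity activating IgG receptor that binds immune complexes. It ranged over cells with megakaryocytes from 0 CPM through a median of 1093 CPM to 3851 CPM in cell 4, and 18 of 20 cells held at least 100 CPM. It was read in 19 of 20 cells (95%, 75.1 to 99.9%). The cell at 0 was cell 19, a deep library of 1103554 reads with 2094 Tyrobp reads, and cell 16 had 3 Fcgr3 reads. None of the 24 cells without megakaryocytes had a read, which allows a share of cells with a read of up to 12.5% by a floor of 3 cells and up to 14.2% by the Clopper-Pearson interval. The pooled level of 1434 CPM was at least 5935-fold higher, taking a floor of 3 reads over the group without megakaryocytes. Mean log2(CPM + 1) was 9.66 ± 2.62 against 0, with overlap at 0 through cell 19.

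Fcgr1 (ENSMUSG00000015947, chr3:96282909-96293969, minus strand) encodes the high-affinity IgG receptor, which binds single IgG molecules. Its levels with megakaryocytes were 0 CPM in the lowest cells, 295 CPM at the median and 1131 CPM in cell 13. It was read in 16 of 20 cells (80.0%, 56.3 to 94.3%), and cells 6, 11, 12 and 19 had none. The cells fell into a high set of 13 with at least 100 CPM and a low set of 7, in which Fcgr1 had 7 reads in cell 7, 1 read each in cells 10 and 16 and otherwise none. Cells 6, 7, 10, 12 and 19 of the low set had libraries of 707594 to 1103554 reads, so shallow sequencing was a feature of only cells 11 and 16. No cell without megakaryocytes had a read, with the same upper limits. The pooled level of 347 CPM was at least 1436-fold higher against the floor, and mean log2(CPM + 1) was 6.09 ± 3.87 against 0.

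Trem2 (ENSMUSG00000023992, chr17:48346401-48354147, plus strand) encodes the lipid-binding receptor that requires Tyrobp at the cell surface. Its levels with megakaryocytes were 0 CPM in the lowest cells, 64.9 CPM at the median and 940 CPM in cell 7. By coefficient of variation this was the widest spread of the 5 genes, while the SD of log2(CPM + 1) was wider for Fcgr1. Trem2 was read in 16 of 20 cells, with none in cells 6, 12, 16 and 18, and 9 cells held at least 100 CPM. Cell 7 alone gave 22.7% of the Trem2 reads. Without megakaryocytes 1 of 24 cells held 1 read (4.17%, 0.105 to 21.1%). The pooled level was 231 against 0.0805 CPM, a 2874-fold ratio (counting interval 515 to 113540). With the top cell of each group left out, the log2 ratio was at least 9.57 (3-read floor) in place of 11.49. Mean log2(CPM + 1) was 5.74 ± 3.37 against 0.07 ± 0.36. The 2 groups overlapped through the 4 cells at 0.

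Lilrb4a (ENSMUSG00000112148, chr10:51490956-51496611, plus strand) encodes the ITIM receptor of myeloid cells whose tail motifs are printed above. In cells with megakaryocytes it ranged from 295 CPM in cell 19 through a median of 2355 CPM to 6147 CPM in cell 16, so every cell held at least 100 CPM. In cells without megakaryocytes it was read in 5 of 24 (20.8%, 7.13 to 42.2%), at most 112 CPM. Even that highest cell lay under the lowest cell with megakaryocytes. The pooled level was 2482 against 6.85 CPM, a 362-fold ratio (293 to 454), and mean log2(CPM + 1) was 11.16 ± 1.04 against 0.55 ± 1.47. With each group's top cell left out, the pooled log2 ratio was 12.38 in place of 8.50.

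That single cell without megakaryocytes was cell 2, which held 80 of the group's 85 Lilrb4a reads (94.1%). It also held 78 reads of the near-identical gene Lilr4b, 84 of Cd68 and 41 of Cd14, both typical of macrophages, and 1 of Itgam. Cd68 and Cd14 were not particular to cell 2, though it had the most reads of each in its group. Of the 24 cells without megakaryocytes, 13 held a read of Cd68 and 10 a read of Cd14. The other 16 listed macrophage markers had no read in cell 2, Tyrobp, Fcer1g, Fcgr1, Ptprc and Csf1r among them.

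Reads of Lilrb4a and Fcgr3 carry an uncertainty from close copies. The coding sequences of Lilrb4a and Lilr4b were 96.0% identical over 907 aligned bases, and 17.8% of the 50-base windows of Lilrb4a also stood in Lilr4b. Lilr4b was read in all 20 cells with megakaryocytes, with 12868 reads against 38810 for Lilrb4a. Fcgr3 was 86.7% identical to the inhibitory Fcgr2b over 782 aligned bases, with 22.1% of 50-base windows shared. No window of 150 bases, the length of 1 read, was shared in either pair. Lilrb4a also overlaps the same-strand readthrough gene Gm49339 and the antisense gene Gm40645, and Fcgr3 overlaps the microRNA gene Mir6546, so their reads cannot be told apart without the counting rules.

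Levels of different genes were compared only as CPM per kb of annotated exons. The median over the 20 cells with megakaryocytes was 2070 CPM per kb for Tyrobp, 630 for Fcgr3, 451 for Lilrb4a, 114 for Fcgr1 and 13.1 for Trem2. Tyrobp exceeded Fcgr1, Fcgr3 and Trem2 within each of the 20 cells, and Lilrb4a in 19. The neighbours Fcgr3 and Lilrb4a were not set apart, since Fcgr3 was higher in 14 of 20 cells, and Fcgr1 was likewise above Trem2 in 14. With the longest coding transcript as the length, Lilrb4a stood at 1705 CPM per kb, above Fcgr3 at 811, and Fcgr3 exceeded it in only 5 cells. Fcgr1 and Trem2 then stood at 114 and 59.7, with Fcgr1 higher in 10 cells. Tyrobp stayed first, at 2313, and was above Lilrb4a in 15 cells.

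Every cell with megakaryocytes that held a receptor read also held reads of the adaptor. Since Tyrobp was read in all 20 cells with megakaryocytes, each of the 16 Fcgr1 cells, 19 Fcgr3 cells, 16 Trem2 cells and 20 Lilrb4a cells also held Tyrobp. With each cell thinned to 310000 reads, which left 18 cells, Fcgr1 and Trem2 each shared 15 cells with Tyrobp, Fcgr3 17 and Lilrb4a 18. Of the 3 cells without megakaryocytes that held a Tyrobp read, only cell 21 held a receptor read too, with 2 reads of Lilrb4a.

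Cells differed in which receptors they combined. All 4 receptors were read in 14 of 20 cells, 3 of them in 3 cells and 2 of them in 3 cells. At a level of at least 100 CPM, cells 1, 3, 8, 13, 14 and 17 held all 4, and 7 cells held Fcgr1, Fcgr3 and Lilrb4a with Trem2 below that level. Cells 7, 10 and 11 held Fcgr3, Trem2 and Lilrb4a with Fcgr1 below it. Cells 7 and 10 had the 2 highest Trem2 levels, 940 and 553 CPM, with Fcgr1 at 8.02 and 1.27 CPM. Cells 6 and 12 held only Fcgr3 and Lilrb4a, with neither Fcgr1 nor Trem2 read at all. Cells 16 and 19 held only Lilrb4a at that level.

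**Figure D2:**
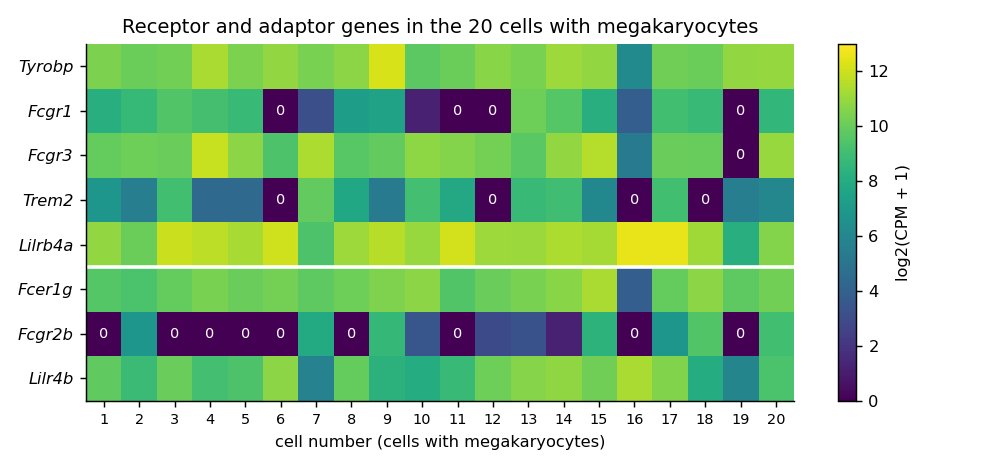
log2(CPM + 1) of the 5 genes (above the white line) and of Fcer1g, Fcgr2b and Lilr4b (below it) in each of the 20 cells with megakaryocytes; a white 0 marks no read. Tyrobp and Lilrb4a have no 0, Fcgr3 has a 0 only in cell 19, and Fcgr1 and Trem2 have 4 each, shared in cells 6 and 12.

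Presence together did not extend to levels that moved together. Across the 20 cells the Spearman correlation with Tyrobp was 0.06 for Fcgr1, 0.15 for Fcgr3, -0.19 for Trem2 and -0.06 for Lilrb4a. None reached 0.5, a value that 0.726% of the 2203 other genes read in at least 10 of these cells did reach. The cells share a plate, differ in depth and hold many low counts, so values of this size are no finding. Over the alternatives, which include Fcer1g as the adaptor of the Fc receptors, the correlation ran from -0.16 to 0.24 for Fcgr1, from 0.04 to 0.32 for Fcgr3, from -0.37 to 0.25 for Trem2 and from -0.27 to 0.24 for Lilrb4a. Without cell 16 they were -0.01, 0.04, -0.37 and 0.10, and the Pearson correlation of Fcgr3 went from 0.30 to -0.08. The sign thus depended on the setting for all 4 receptors.

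**Figure D3:**
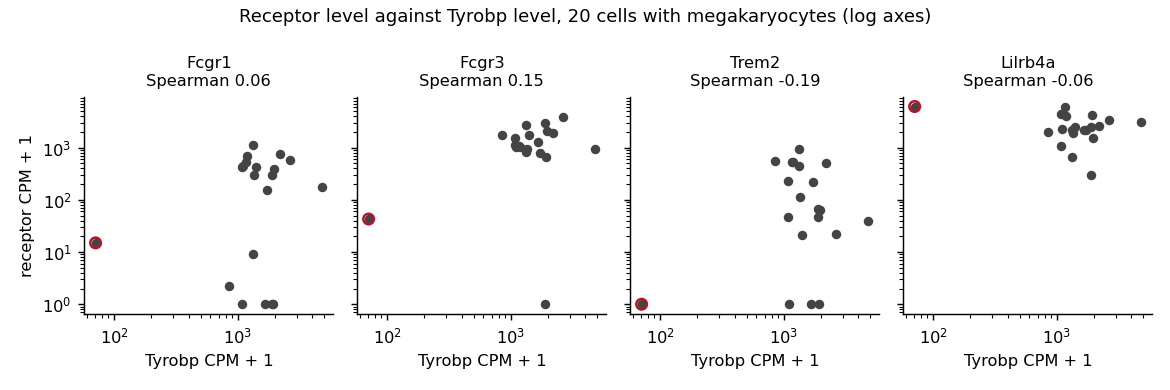
Level of each receptor against the level of Tyrobp (CPM + 1, log axes) in the 20 cells with megakaryocytes; each point is a cell and the red ring marks the shallow cell 16. Most cells sit in a narrow band of Tyrobp levels, over which Fcgr1 and Trem2 run from 0 to their highest values.

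The number of receptor reads per Tyrobp read in a cell showed the same spread. Per Tyrobp read, the cells held 0 to 0.859 Fcgr1 reads with a median of 0.199, and 0 to 2.08 Fcgr3 reads with a median of 0.895. Trem2 had 0 to 0.714 with a median of 0.0388. Lilrb4a had 0.156 to 88, with a median of 1.37, and at most 5.18 without cell 16.

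Fcer1g, the adaptor that serves the Fc receptors, was measured beside Tyrobp. It was read in 20 of 20 cells with megakaryocytes, from 14.0 CPM through a median of 1100 CPM to 2572 CPM, and in 8 of 24 cells without, at most 4.76 CPM. The groups did not overlap, and the pooled level was 1193 against 0.805 CPM, a 1482-fold ratio. Across the 20 cells the Spearman correlation of Fcer1g was 0.44 with Tyrobp, 0.24 with Fcgr1 and 0.31 with Fcgr3. The Pearson correlation of the 2 adaptors was 0.87 with cell 16 and 0.30 without it, so the larger value rested on that cell.

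The genes whose levels followed each member most closely are given by Spearman correlation across the same 20 cells, among genes read in at least 10 of them. They are the highest of 2203 values per member, so high values come with the choice itself and are descriptions only. Some were read in few cells with megakaryocytes, such as Timm44 in 11, Nasp in 14 and, for Trem2, Agps in 13. For Tyrobp they were Ndufb8 at 0.78 and Atp5f1 at 0.72, both of mitochondrial respiration, the surface protein gene Ly6e at 0.72, the myosin light chain gene Myl6 at 0.69 and Timm44, of mitochondrial import, at 0.57. For Fcgr1 they were the histone chaperone gene Nasp at 0.80, the lysosomal protease gene Ctsl at 0.74 and the leukocyte surface gene Cd84 at 0.71. For Fcgr3 they were the galectin gene Lgals1 at 0.81, Sarnp at 0.72 and Itpripl1 at 0.71. For Lilrb4a they were Bcl2a1b at 0.61, of the Bcl2 family, Slfn2 at 0.59 and the phosphatase gene Ptprj at 0.56. Its near copy Lilr4b stood at 0.54. Without cell 16 these 4 values were 0.54, 0.52, 0.48 and 0.46.

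For Trem2 the closest was the lysosomal protease gene Ctsb at 0.83, then Agps, of ether lipid synthesis, at 0.78 and Atp6v1b2, a subunit of the lysosomal proton pump, at 0.75. Of 15 other measured genes in a list of lipid-associated macrophage genes linked to Trem2, 4 reached 0.5 (26.7%), where 88 of 2203 genes did (3.99%), and the median was 0.33 against 0.10. The 4 were Ctsb, the fatty acid carrier gene Fabp5 at 0.68, Gpnmb at 0.60 and Ctsl at 0.58. Without cell 16 the values were 0.81, 0.64, 0.58 and 0.52. Ctsl also followed library reads, at 0.50, while Trem2 followed them at 0.18. The list was chosen with earlier results of these data known. The 2203 genes were of all levels, and the part of level in these shares and medians was not tested. Genes of the same list also followed the Fc receptors, and the difference from Trem2 was not tested. With Fcgr1, 2 of 16 genes reached 0.5 (12.5%, where 3.90% of all genes did) and the median was 0.24 against 0.06. With Fcgr3, 1 of 16 did (6.25% against 2.63%) and the median was 0.26 against 0.07. With Tyrobp and with Lilrb4a 0 of 16 did, and the medians were -0.16 and -0.10.

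**Figure D4:**
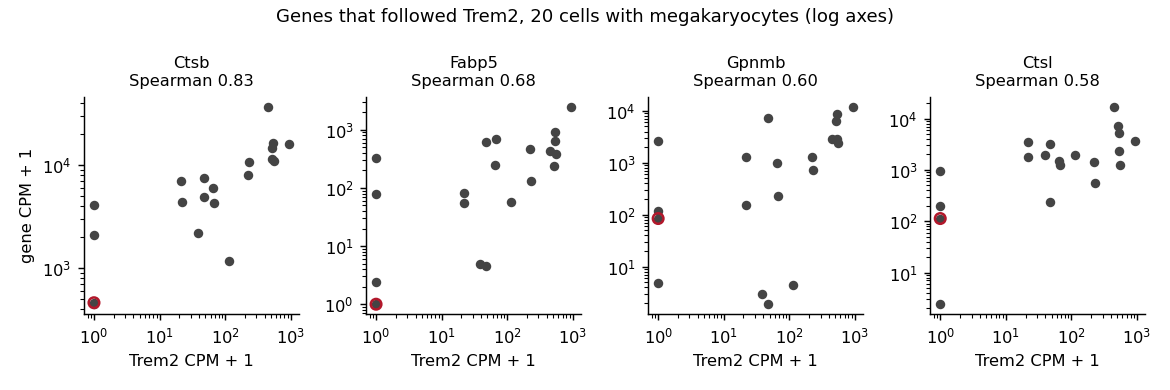
Level of Ctsb, Fabp5, Gpnmb and Ctsl against the level of Trem2 (CPM + 1, log axes; vertical scales differ) in the 20 cells with megakaryocytes; each point is a cell and the red ring marks the shallow cell 16. Ctsb runs from 446 CPM to 37340 CPM, and the 6 cells highest in Trem2 all lie above the median of Ctsb and of Gpnmb, but not all above that of Fabp5 or Ctsl.

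The pathway was described through lists of genes that include the members, by counts beside the same count over all genes. Mean log2(CPM + 1) was higher in cells with megakaryocytes for 909 of the 3271 genes compared (27.8%), with a median difference of -1.10. By pooled CPM 1524 genes were higher (46.6%) and the median log2 ratio was -0.14, so the background depends on the scale. The counts of genes higher in each of the 9 lists were the same by pooled CPM. The differences below stand against that shift and the marker differences given above. Some listed genes passed the limit of 10 cells through the cells with megakaryocytes alone. Clec4a1, Btk and Vav1, for example, were each read in 13 cells with and 0 cells without megakaryocytes. Such genes could only count as higher, so the list counts are descriptions. Both listed ITAM adaptors, Tyrobp and Fcer1g, were higher, and so were all 3 listed Fc receptors, with a median difference of 6.09. The third Fc receptor was the inhibitory Fcgr2b, read in 11 and 1 cells, at 118 against 0.0805 CPM pooled.

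Of the receptors that use Tyrobp, 4 of 19 in the list were present in the table, 3 were compared, and all 3 were higher, with a median difference of 4.46. Beside Trem2 they were Clec5a and Cd300lb. Clec5a, a C-type lectin of myeloid cells, was read in 15 and 1 cells with an 803-fold pooled ratio. Cd300lb was read in 9 and 1 cells, at 57.4 against 0.0805 CPM pooled. Cell 17 alone gave 66.7% of the Cd300lb reads of the cells with megakaryocytes, whose median was 0 CPM. The receptors that use Fcer1g gave 2 compared of 12, both higher. They were the Dectin family genes Clec4d, at 447 against 0.483 CPM, and Clec4n, at 800 against 0.403 CPM.

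The list of inhibitory receptors held 22 genes, of which 9 were compared; all 9 were higher and their median difference was 4.79. Lilrb4a had the largest difference of them, 10.60, followed by Lilr4b with 8.79, Clec4a2 with 7.24 and Cd300a with 4.79. Lilr4b belongs to the list by family only: the only ITIM match in its coding sequence lay at coding bases 22 to 39 of 909, near the start, where Lilrb4a has one too. Of the other genes of the list only Fcgr2b, with 1 match, was searched for ITIMs, so the rest may lack one too. Outside the list the same letters matched 3 times in Fcgr1 and 1 time in Tyrobp, and 0 times in Fcgr3 and Trem2. The Tyrobp match, at coding bases 268 to 285, overlaps the ITAM printed above. A match of letters alone therefore does not mark an inhibitory receptor. Clec4a2 was at 352 against 0.161 CPM and Cd300a, which recognises phospholipids of dying cells, at 231 against 0.161 CPM.

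Downstream, all 14 compared kinases and adaptors of ITAM signalling were higher, with a median difference of 4.53. The largest differences were those of the small GTPase gene Rac2 (692 against 0.322 CPM), the scaffold gene Fyb (458 against 0.161 CPM) and the genes of the phagocyte oxidase Ncf4 (515 against 0.322 CPM) and Cybb (393 against 0.242 CPM). Syk itself, the kinase that docks on the ITAM, differed by 3.00, with a read in 15 of 20 and 7 of 24 cells; it was named here for its role. Of the genes listed as negative regulators 3 of 4 compared were higher. They were the phosphatase genes Ptpn6, at 653 against 0.161 CPM, and Ptprc, at 525 against 0.0805 CPM, and Pstpip1, at 56.4 against 0.242 CPM. Cell 19 alone gave 61.7% of the Pstpip1 reads of the cells with megakaryocytes. Ptprc is also among the macrophage markers above, and whether it restrains or aids ITAM signals in these cells was not tested. Dok1 was lower by a small difference of -0.27, with reads in 3 and 7 cells.

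The ligands, sheddases and cofactors of Trem2 and Lilrb4a were less one-sided, with 7 of 10 higher, 3 lower and a median difference of 1.64. Apoe, a lipoprotein ligand of Trem2, was at 999 against 31.8 CPM, the galectin gene Lgals3 at 2341 against 165 CPM, and the growth factor receptor gene Csf1r at 680 against 2.01 CPM. The integrin subunit gene Itgav was lower, at 162 against 485 CPM. Of the lipid-associated genes linked to Trem2 13 of 16 compared were higher, with a median difference of 3.88, among them Gpnmb (2774 against 26.3 CPM) and Cd68 (942 against 17.3 CPM). The 3 lower ones were Cd9, Cd63 and Lgals1. By pooled CPM Cd9 was higher (560 against 454 CPM) and Spp1 was the third lower gene (1456 against 2902 CPM). Cell 13 alone gave 57.9% of the Spp1 reads of the cells without megakaryocytes. The Spp1 medians were 422 CPM with and 6.93 CPM without megakaryocytes.

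**Figure D5:**
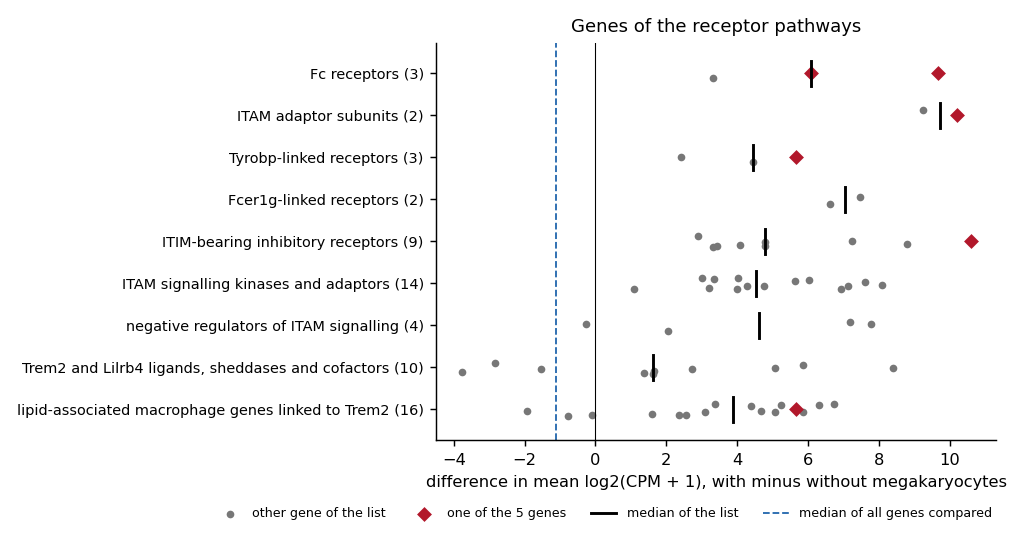
Difference in mean log2(CPM + 1), cells with minus cells without megakaryocytes, for each gene compared in 9 lists (number of genes in brackets); red diamonds are the members, grey points the other genes, black bars the list medians and the dashed line the median of all genes compared, -1.10. In 7 of the 9 lists all or all but 1 of the genes lie right of 0.

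Promoter letters were also counted around the members, leaving out the 3 members whose promoters gave the shared run. GAGGAAG stood in the promoters of 28 of 100 other genes at least 100-fold higher in cells with megakaryocytes (28%) and of 344 of 2557 other genes compared (13.5%). TTCCTTCCTC stood in 3 (3%) and 14 (0.547%). These counts describe letters and say nothing on binding.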

How the data were processed

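Single cells were captured on a Fluidigm instrument and libraries were made with Nextera XT, per the labels' protocols. The submitters' processing notes name the mm10 build and Seurat; the aligner and counter used were not given in the sources used here. The authors deposited 1 table of 3613 genes in 44 cells, whose unit is a signal: by its values, the reads of a gene × 1000000000 divided by the library's reads and by a whole number constant for the gene. That constant does not follow gene length, so deposited values were compared between cells within a gene only. From these steps whole reads were recovered for 99807 of 99807 values above 0 (within 0.0001 of a whole number), and CPM was computed from them. This use of recovered reads, in place of means of the deposited signal, was the option named in the design.

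Cells were grouped by the treatment label. Each group is 1 sample of cells, so no count model was fitted and no test was made. Mean log2(CPM + 1) with its SD over cells, pooled CPM, exact intervals (95%: Clopper-Pearson, Poisson and binomial) and correlations across cells are descriptions. The protocol named no molecular identifiers, so reads are not independent molecules. A group with 0 reads was given a floor of 3 reads over the group. Genes with a read in at least 10 cells were compared (3271).

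The members and lists were chosen with earlier results of these data known. From each list the text names the 4 genes with the largest differences. By Spearman correlation it names the 5 genes nearest to Tyrobp and the 3 nearest to each other member. Syk, Cd300lf, Apoe with Lilrb4a, and the genes of cell 2 were named after their values were seen. Alternatives were other totals, size factors, pseudocounts, detection limits, thinning to 310000 reads, leaving out cells and another gene length. The last, Fcer1g as the adaptor, and leaving out cell 16 were added after seeing the data. Scripts were tested on simulated data. Sequences came from GENCODE M21 and RefSeq (GRCm38.p6), which held 3 of the 5 members' promoters. Python 3.11.15, pandas 2.3.3, SciPy 1.17.1 and Biopython 1.88 were used.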

Additional observations from a re-analysis of the deposited data

How the results depend on the processing

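All 5 genes were higher in cells with megakaryocytes under every alternative tried, and the 9 list counts stayed within 1.5 times. The size of the difference moved: with a pseudocount of 10 CPM it was 7.06 for Tyrobp, 6.53 for Fcgr3, 3.20 for Trem2 and 7.65 for Lilrb4a, and on log2(deposited signal + 1) it was 11.08 for Tyrobp and 8.99 for Trem2. As a pooled log2 ratio it was 12.83 for Tyrobp, 10.49 for Fcgr1, 12.54 for Fcgr3, 11.49 for Trem2 and 8.50 for Lilrb4a. With each group's top cell left out, the pooled log2 ratio of Lilrb4a was 12.38. The share of cells without megakaryocytes was 0% for Tyrobp at 10 CPM, at 3 reads and after thinning to 310000 reads, 0% for Trem2 at 10 CPM and at 3 reads, and 4.17% for Lilrb4a at both limits. Correlations with Tyrobp changed sign without the 2 shallow cells (Fcgr1 -0.13, Lilrb4a 0.23), after thinning (Fcgr1 -0.16, Lilrb4a 0.24), without cell 16 (Fcgr1 -0.011, Lilrb4a 0.10), without the receptor's top cell (Lilrb4a 0.028) and as Pearson correlations (Trem2 0.25); the cause was not tested. With the coding transcript as the length, Lilrb4a stood at 1705 CPM per kb. Of the other values, 38 of 50 levels and 33 of 40 shares kept their direction and moved by less than the spread over cells or the counting interval. Of the correlations 22 of 30 kept their sign. The limit set for a change in their size was too wide to mark any, so that count does not show stability. Levels at or near 0 in the shallow cells 11 and 16 are limited by depth, since 3 reads there are 43.4 and 41.9 CPM. No paired analysis was possible because the numbers in the titles only name cells and no test was made.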

Other observations

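The inhibitory Fc receptor Fcgr2b, which restrains signals from Fcgr3, was uneven where Fcgr3 was broad. In the 20 cells with megakaryocytes Fcgr2b ranged from 0 CPM through a median of 3.85 CPM to 704 CPM in cell 18. It had no read in cells 1, 3, 4, 5, 6, 8, 11, 16 and 19, and cell 4 among them had the highest Fcgr3 level, 3851 CPM. In cell 20 both were high, with Fcgr2b at 536 CPM and Fcgr3 at 2057 CPM, while in cells 10, 12, 13 and 14 Fcgr2b had 8, 5, 7 and 1 reads. Reads that both genes share in sequence could add to either.

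Another lipid-binding receptor of macrophages, Cd300lf, had a Spearman correlation of 0.68 with Trem2 and -0.03 with Tyrobp across the 20 cells. It was read in 15 of them and in 1 of 24 cells without megakaryocytes, at 73.0 against 0.0805 CPM pooled. Apoe, a ligand of Trem2, had a correlation of -0.59 with Lilrb4a. Without cell 16 the values were 0.64, -0.16 and -0.56. These are descriptions across cells of 1 plate, and the pairs were picked after their values were seen.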
